A study of Mus musculus with 8 samples.

Results

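Liver makes fatty acids and esterifies them into triglyceride, and 36 genes of these steps were followed in livers of Cpeb4 knockout (KO) mice. The genes were chosen by function, as lipogenic enzymes, elongases, desaturases other than the stearoyl-CoA desaturases, acyl-CoA synthetases, enzymes of glycerolipid synthesis and the regulators SREBP1, ChREBP and LXR alpha. Their symbols were matched to the gene identifiers of the deposited tables, where 34 of the 36 were found among 24375 genes present in at least 1 table. Agpat2 and Lpin2 have no expression values here and entered only the promoter search. Every one of the 34 passed the authors' filter on low means in both tables, so no member dropped out of a test.

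The libraries came from 4 groups of 2, namely endoplasmic reticulum (ER) RNA of Cpeb4 KO mice, total liver RNA of Cpeb4 KO mice, ER RNA of wild-type (WT) mice and total liver RNA of WT mice. The ER was purified from livers of mice fasted overnight, while the feeding state behind the total liver RNA is not stated in the labels. The labels name no treatment, strain, age, sex or knockout strategy. Whether both libraries of a group stem from different mice is not stated either, and the p-values may then reflect technical spread alone. The authors' tables hold 1 KO against WT comparison each, of 4 libraries, and are called the larger table (23634 genes, of which 14180 were tested) and the smaller table (21201 genes, 11661 tested). Neither names its RNA preparation, and neither is assigned to one here.

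Fatty acid synthesis starts from citrate, which leaves the mitochondrion through the carrier Slc25a1 and is cut to acetyl-CoA by ATP citrate lyase (Acly). Acetyl-CoA carboxylase (Acaca) makes malonyl-CoA, and fatty acid synthase (Fasn) builds palmitate, which elongases lengthen and desaturases unsaturate. Acyl-CoA synthetases activate fatty acids, which are then joined stepwise to glycerol 3-phosphate until a diacylglycerol acyltransferase (Dgat1 or Dgat2) makes triglyceride. In liver this programme is switched on after feeding by SREBP1c (Srebf1), which responds to insulin and LXR alpha (Nr1h3), and by ChREBP (Mlxipl), which responds to carbohydrate, and it is low in fasting. CPEB4, the protein of the gene targeted in the KO, binds U-rich cytoplasmic polyadenylation elements in 3′ untranslated regions. It regulates polyadenylation and translation of the mRNAs carrying them.

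The reads of single libraries were recovered from the deposited means. A mean is a sum of whole reads of 4 libraries, each divided by a size factor and by 4, and the genes with a single read show the size factor of each library. With 15 printed digits, 1 combination of 4 whole numbers gave the printed mean for 11539 of 11560 tested genes with a mean under 2000 in the larger table and for 9377 of 9383 in the smaller. Below a mean of 1000 no fold change was used in this search. A deposited fold change and its standard error imply 2 possible log2 KO over WT ratios, and the nearer one was used for comparison. For all 1696 and all 1393 genes with means of 600 to 1000, the ratio of the recovered reads lay within 0.02 of that nearer one. Of the 34 members, 26 were recovered in the larger table, with 30 in the smaller, of which 8 and 11 had means under 1000. Above a mean of 1000 several combinations can give the mean (up to 70 for a member, Slc25a1). The combination whose log2 KO over WT ratio lay within 0.005 of either ratio implied by the deposited fold change was taken. For such genes the library values are therefore not independent of the deposited fold change. The reads carry no library name, so the 2 libraries of a side are called the deeper and the shallower, and each pair of values below gives the deeper one first. Size factors were 1.24 and 0.904 for KO and 1.26 and 0.717 for WT libraries in the larger table, and 1.64 and 0.839 for KO and 0.870 and 0.839 for WT libraries in the smaller. Values per library are normalised read counts, that is, reads divided by the size factor.

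Cpeb4 was lower in the KO in both tables and had the smallest p of each. It had 506 and 580 normalised reads in the KO libraries, against 1511 and 1657 in the WT libraries, of the larger table. In the smaller table it had 193 and 225 in the KO libraries, against 689 and 634 in the WT libraries. The tables write neither the groups nor the direction of their comparison, so the side on which Cpeb4 was low was read as the KO, and the sides of the recovered libraries follow the sign of the authors' fold change. Every direction given here rests on that reading.

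The libraries of the 2 tables were not unrelated. Across 6660 genes with a mean of at least 100 in both, the log2 ratio of the deeper to the shallower KO library of the larger table correlated with that of the smaller (Pearson's r = 0.69, a description across genes). Between the WT libraries r was -0.65, so that the shallower WT library of one table resembled the deeper WT library of the other. The labels use the same 4 description numbers for the ER and the total liver libraries. The tables are therefore given side by side, and a difference seen in both is not counted as seen in separate animals.

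Most members had values below 0, by small amounts. In the authors' deposited tables, 28 of 34 members had a log2 fold change below 0 in the larger table, beside 50.4% of all tested genes, and 23 of 34 did in the smaller, beside 49.7%. The same 23 were below 0 in both tables, 6 were above 0 in both and 5 differed in sign. The median log2 fold change of the members was -0.07 in the authors' deposited larger table, against -0.00083 for all tested genes, and -0.08 in the smaller, against 0.00085. Over the 16 members with no shared sequence or overlapping gene it was -0.05 and -0.02. Two-sided unadjusted p-values under 0.05 belonged to 10 members in the larger table, 9 of them lower and 1 higher in KO. Of all tested genes 3.62% had one, 2.0% lower and 1.63% higher in KO. They belonged to 11 members in the smaller table, 9 of them lower and 2 higher in KO. The share of all tested genes was 4.11%, with 1.96% lower and 2.14% higher in KO. After Benjamini-Hochberg adjustment over all genes (the authors' Wald test in DESeq2), 2 members passed 0.05 in the larger table, Srebf1 and Elovl3, both lower in KO. Of all tested genes 0.296% passed there, 0.205% lower and 0.0917% higher in KO. None passed in the smaller table, where 0.266% of tested genes did, 0.103% lower and 0.163% higher in KO, and the lowest adjusted p of a member was 0.0665 (Acsl4). Both calls sat close to the threshold: with no filter on low means the adjusted p was 0.0748 for Srebf1 and 0.0808 for Elovl3, and limma-voom on the recovered reads gave 0.369 and 0.227. By limma-voom no member passed in either table, beside 0.0173% and 0.0% of all genes fitted in the larger and the smaller. Unadjusted limma-voom p-values under 0.05 were held by 13 of 26 and 11 of 30 members, beside 7.5% and 6.95% of all genes fitted, nearly all of which have a mean up to 2000. Among members in that range of means they were held by 8 of 14 and 8 of 19. A median of member log2 ratios from the recovered reads, which are not drawn towards 0 as the deposited estimates are, was -0.14 over 26 members of the larger table and -0.14 over 30 of the smaller. In the larger table it was -0.23 without the shallower KO library and -0.23 without the shallower WT library, and in the smaller it was -0.065 without the shallower WT library.

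**Figure D1:**
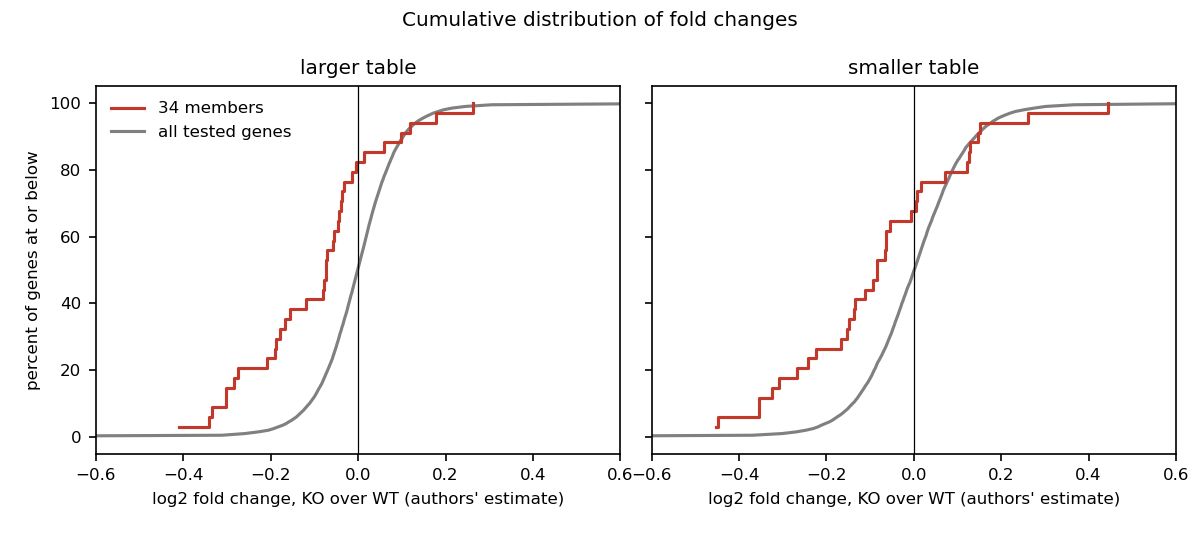
Cumulative distribution of the authors' log2 fold change, KO over WT, in the larger table (left) and the smaller table (right), for the 34 members (red steps) and all tested genes (grey line). The vertical axis is the percent of genes at or below a value. The red steps lie above the grey line over the negative range, and 28 and 23 of 34 members are below 0.

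Among members with recovered reads, both KO libraries lay below both WT libraries for 14 of 26 (larger table) and 14 of 30 (smaller table). Both KO libraries lay above both WT libraries for 3 and 3. Of all recovered genes with a mean up to 2000, 19.7% and 20.5% had both KO libraries below in the larger and the smaller table, and 17.5% and 18.7% had both above. Within that range of means, the members were below in 8 of 14 and 9 of 19. The same 13 genes were below in both tables, namely Srebf1, Mlxipl, Nr1h3, Thrsp, Mid1ip1, Fasn, Acaca, Pklr, Aacs, Slc25a1, Elovl3, Acsl5 and Agpat1. Acly and Acsl4 were above in both. In bulk RNA, fewer cells of a type and less of a transcript per cell cannot be told apart.

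**Figure D2:**
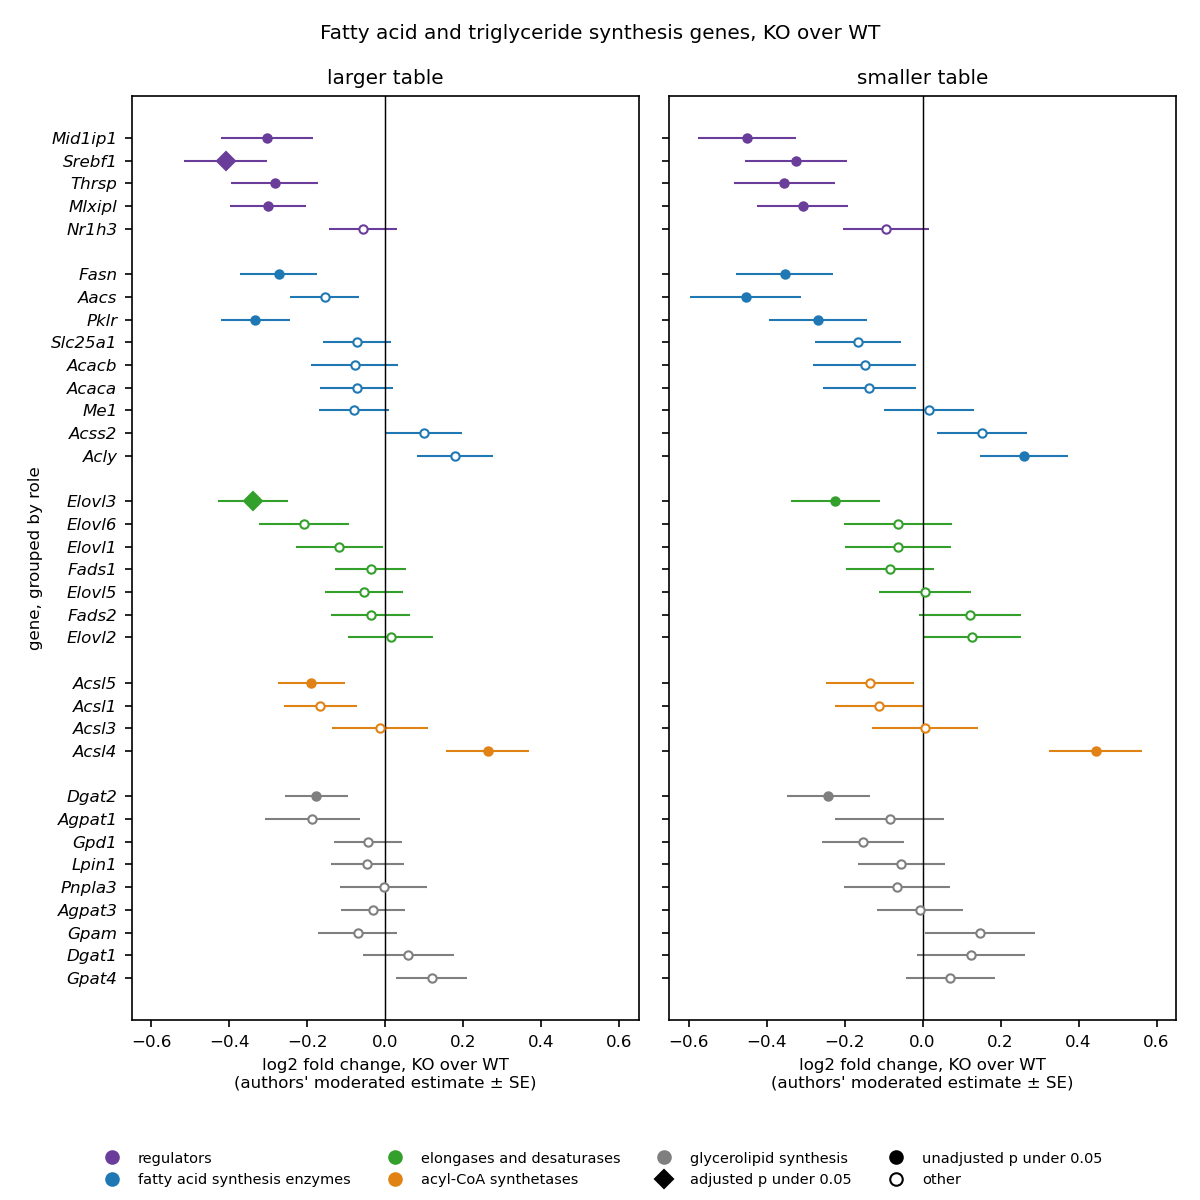
The authors' moderated log2 fold change, KO over WT, with its standard error, for the 34 members in the larger table (left) and the smaller table (right), grouped by role. Diamonds mark an adjusted p under 0.05 (Srebf1 and Elovl3 in the larger table), filled circles an unadjusted p under 0.05. All 5 regulators lie left of 0 in both tables, and Acsl4 stands at the right with 0.26 and 0.44.

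All 5 regulators had values below 0 in both tables. Their reads were recovered in both tables, and both KO libraries lay below both WT libraries for all 5, beside 19.7% and 20.5% of all recovered genes with a mean up to 2000 in the larger and the smaller table. For Nr1h3 that gap was narrow. Their median log2 fold change was -0.30 in the authors' deposited larger table, with -0.32 in the smaller. One of the 5 passed in the larger table and none in the smaller.

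Srebf1 encodes SREBP1, the basic helix-loop-helix factor that turns on Fasn, Acaca and other lipogenic genes once it is cut from the ER-bound precursor. The gene (ENSMUSG00000020538) lies at GRCm38 chromosome 11, 60199089 to 60222581, on the minus strand. In the larger table it had 1429 and 1806 normalised reads in KO libraries, against 2480 and 2240 in WT libraries. In the smaller table it had 598 and 813 in KO libraries, against 960 and 982 in WT libraries. The groups did not overlap in either table, and the deeper KO library was the lowest in both. The KO mean was 1.46-fold lower in the larger table, while in the smaller it was 1.38-fold lower. The authors' deposited larger table gives a log2 fold change of -0.41 ± 0.11 (SE, adjusted p = 0.0449), and the smaller -0.32 ± 0.13 (adjusted p = 0.726). Srebf1 therefore fell in the larger table by the authors' test. Its limma-voom log2 ratio without the deeper KO library was -0.39 in the larger table, with -0.26 in the smaller, against -0.57 and -0.50 with all libraries. Its exons overlap those of Rai1 and Mir6922 in the annotation, and without a stated strand setting reads of the shared stretch cannot be told apart. The transcript forms 1a and 1c of Srebf1 are counted together in these tables.

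Srebf1 has 3 start sites in RefSeq (GRCm38.p6). The promoter with the most matches to the searched motifs is shown because Srebf1 is one of the 2 members that passed. It is the 250 bases before the start at chr11:60210472-60210721, minus strand. Capitals mark a CCAAT box (CCAAT, read on either strand) and 2 GC boxes (GGGCGG).
Srebf1: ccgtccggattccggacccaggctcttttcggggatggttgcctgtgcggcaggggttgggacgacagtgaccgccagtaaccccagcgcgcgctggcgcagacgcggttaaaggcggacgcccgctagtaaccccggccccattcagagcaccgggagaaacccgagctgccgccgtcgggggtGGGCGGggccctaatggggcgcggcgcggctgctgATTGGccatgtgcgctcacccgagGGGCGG
In the same 250-base window, a CCAAT box occurred in 33.85% and a GC box in 32.74% of all 32851 mouse promoters in the RefSeq set.

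Mid1ip1 (Spot 14-related protein, which binds acetyl-CoA carboxylase and promotes its polymerisation) and Thrsp (Spot 14, its paralog and a thyroid hormone-responsive lipogenic protein) had values below 0 in both tables and did not pass in either. For Mid1ip1 the larger table held 425 and 485 normalised reads in KO libraries, against 714 and 544 in WT libraries. The smaller held 578 and 585 in KO libraries, against 838 and 941 in WT libraries. The 2 KO libraries were close to each other in both tables, and the authors' deposited tables give -0.30 ± 0.12 (adjusted p = 0.659) in the larger and -0.45 ± 0.13 (adjusted p = 0.0965) in the smaller. Thrsp had 1819 and 1391 in KO libraries, against 2296 and 1936 in WT libraries, of the larger table. In the smaller table it had 3090 and 2200 in KO libraries, against 3278 and 4235 in WT libraries. The nearest KO and WT libraries of Thrsp were thus close together in both tables. Its log2 fold change was -0.28 ± 0.11 in the authors' deposited larger table, with -0.35 ± 0.13 in the smaller (adjusted p = 0.681 and 0.522). Single libraries carried part of these values. The limma-voom log2 ratio of Mid1ip1 in the larger table was -0.27 without the deeper WT library, against -0.50 with all. That of Thrsp was -0.22 without the shallower KO library of the larger table, against -0.41 with all. In the smaller table Thrsp had -0.27 without the shallower KO and -0.33 without the shallower WT library, against -0.51.

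The promoter of Mid1ip1 is shown as that of one of the 2 further members with the lowest Wald statistics summed over the tables. It is chrX:10717115-10717364, plus strand, and the capitals mark 2 GC boxes read on the minus strand.
Mid1ip1: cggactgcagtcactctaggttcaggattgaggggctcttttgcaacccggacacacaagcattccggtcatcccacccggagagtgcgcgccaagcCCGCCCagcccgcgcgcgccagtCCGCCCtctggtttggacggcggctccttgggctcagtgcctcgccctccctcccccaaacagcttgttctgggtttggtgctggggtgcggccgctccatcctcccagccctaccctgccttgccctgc
No exact match to the searched CCAAT box, E-box (CACGTG) or sterol regulatory element (TCACNCCAC) was found in these letters.

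Mlxipl encodes ChREBP, the carbohydrate-responsive partner of Mlx that acts on Pklr and lipogenic genes. It had 1524 and 1735 normalised reads in KO libraries, against 2120 and 2102 in WT libraries, of the larger table. The smaller table gave it 1263 and 1356 in KO libraries, against 1656 and 1781 in WT libraries. The gap between the groups exceeded the distance between libraries of a group in both tables. Even so, the authors' deposited tables give -0.30 ± 0.10 and -0.31 ± 0.12, with adjusted p = 0.264 in the larger and 0.605 in the smaller. Nr1h3 (LXR alpha, the oxysterol receptor that raises Srebf1 transcription) was the regulator with the smallest difference. Its libraries held 4386 and 4078 in KO, against 4452 and 4413 in WT, of the larger table, and 4749 and 4242 in KO, against 4894 and 4854 in WT, of the smaller. The authors' deposited log2 fold changes for Nr1h3 were -0.06 ± 0.09 and -0.09 ± 0.11.

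**Figure D3:**
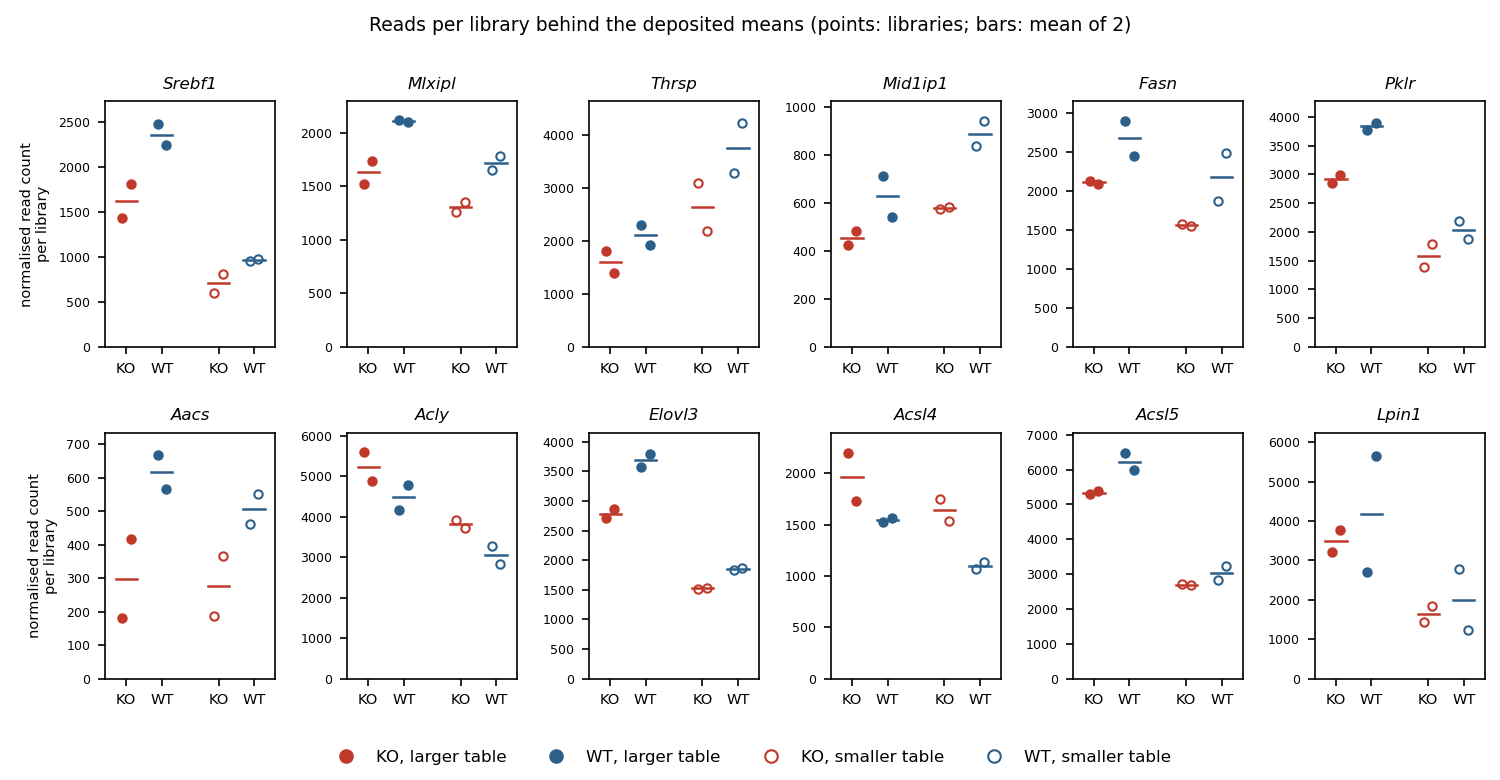
Normalised read count of single libraries, recovered from the deposited means, for 12 members. KO libraries (red) stand left of WT libraries (blue), filled for the larger and open for the smaller table, and a bar marks the mean of 2 libraries. KO and WT do not overlap for Srebf1, Elovl3, Pklr and Mid1ip1, while the WT libraries of Lpin1 lie far apart at 2704 and 5658 in the larger table.

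Of the 9 fatty acid synthesis enzymes and their suppliers, none passed the adjusted threshold in either table. Values below 0 were held by 7 of 9 in the authors' deposited larger table, with 6 of 9 in the smaller, and the medians were -0.08 and -0.15. Reads of all 9 were recovered in both tables. Both KO libraries lay below both WT libraries for the same 5 (Fasn, Acaca, Pklr, Aacs and Slc25a1). This held for 19.7% and 20.5% of all recovered genes with a mean up to 2000. The KO libraries lay above for Acly in both tables and for Acss2 in the smaller, beside 17.5% and 18.7% in that range. Of these named genes, only Acaca and Aacs lay in that range in the larger table. In the smaller table Slc25a1, Acly and Acss2 lay above it.

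Pklr, the liver pyruvate kinase that closes glycolysis and a textbook target of ChREBP, was the enzyme nearest to the threshold. Its libraries of the larger table held 2849 and 2996 normalised reads in KO, against 3776 and 3903 in WT. Those of the smaller held 1384 and 1791 in KO, against 2195 and 1886 in WT. In the larger table the 2 libraries of a group lay close together and the groups lay far apart, whereas in the smaller the nearest KO and WT libraries were 1791 and 1886. The authors' deposited larger table gives -0.33 ± 0.09 with an adjusted p of 0.0502, which missed the threshold, and the smaller gives -0.27 ± 0.12 (adjusted p = 0.999). Without the deeper KO library its limma-voom log2 ratio in the smaller table was -0.18, against -0.38 with all libraries. The exons of Pklr overlap those of Hcn3.

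The promoter of the downstream one of the 2 Pklr starts in RefSeq (chr3:89136373-89136622, plus strand) belongs to the other of those 2 members. Capitals mark a match to the carbohydrate response element, which begins 170 bases before the start, and a CCAAT box read on the minus strand.
Pklr: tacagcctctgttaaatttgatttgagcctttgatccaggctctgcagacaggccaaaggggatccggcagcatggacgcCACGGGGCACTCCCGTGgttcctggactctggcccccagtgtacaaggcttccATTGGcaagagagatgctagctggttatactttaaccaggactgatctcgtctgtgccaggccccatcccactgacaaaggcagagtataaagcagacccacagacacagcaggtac
Of 32851 promoters, 13 (0.0396%) held this element, and Pklr was the one member gene among the 30 with a promoter entry that did. E-boxes (CACGTG) occurred in 4 of the 43 member promoters (9.302%, of Elovl5, Lpin2, Mlxipl and Slc25a1), beside 6.021% of all promoters. The sterol regulatory element (TCACNCCAC) occurred in 2 of the 43 (4.651%, of Acsl1 and Mlxipl), beside 1.053% of all promoters. An exact match to the single LXR element string searched was found in none of the 43 member promoters and in 0.0152% of all. Variants of that string were not searched, so a promoter without a match may still hold an LXR element. Both strands were searched, a stretch may match more than 1 motif, and a match in these letters is not a measured site.

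Fasn, the synthase itself, had 2126 and 2086 normalised reads in KO libraries, against 2898 and 2443 in WT libraries, of the larger table. The smaller table had 1575 and 1551 in KO libraries, against 1871 and 2478 in WT libraries. KO libraries lay close together while WT libraries spread more widely, and the groups did not overlap. Fasn had -0.27 ± 0.10 and -0.35 ± 0.12 in the authors' deposited larger and smaller tables (adjusted p = 0.479 and 0.435). Its limma-voom log2 ratio was -0.21 without the deeper WT library of the larger table, against -0.35 with all, and -0.26 without the shallower WT library of the smaller, against -0.46. The carboxylases showed smaller differences. Acaca had -0.07 ± 0.09 and -0.14 ± 0.12, and Acacb, the mitochondrial form whose malonyl-CoA restrains fatty acid oxidation, -0.08 ± 0.11 and -0.15 ± 0.13, in the authors' deposited larger and smaller tables. For Acaca 33.4% of the 31-base words of its transcripts occur in another annotated gene as well, so its count is uncertain.

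Aacs (acetoacetyl-CoA synthetase, which turns the ketone body acetoacetate into substrate for lipid synthesis) had the widest gap between group means of the members with recovered reads. It had 180 and 416 normalised reads in KO libraries, against 668 and 566 in WT libraries, of the larger table. The smaller table gave it 187 and 366 in KO libraries, against 462 and 551 in WT libraries. The deeper KO library was far below the shallower in both tables, and even the higher KO library stayed under both WT libraries. The KO mean was 2.07-fold lower in the larger table, while in the smaller it was 1.83-fold lower. The deposited estimates are moderated towards 0, and the authors' deposited tables give -0.16 ± 0.09 (adjusted p = 1.00) in the larger and -0.45 ± 0.14 (adjusted p = 0.25) in the smaller. With all libraries the limma-voom log2 ratio of Aacs was -1.24 in the larger table, with -1.04 in the smaller. Without the deeper KO library it was -0.58 (larger) and -0.46 (smaller).

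Acly, which supplies the acetyl-CoA, had values above 0. Its libraries of the larger table held 5590 and 4873 normalised reads in KO, against 4179 and 4796 in WT. Those of the smaller held 3928 and 3728 in KO, against 3277 and 2833 in WT. KO libraries were the higher ones in both tables, by a narrow margin in the larger. The authors' deposited larger table gives 0.18 ± 0.10 (adjusted p = 1.00) and the smaller 0.26 ± 0.11 (adjusted p = 0.903). In the larger table its limma-voom log2 ratio was 0.13 without the deeper KO library and 0.13 without the deeper WT library, against 0.24 with all. Acss2, the cytosolic acetyl-CoA synthetase that supplies the same product from acetate, had 0.10 ± 0.10 and 0.15 ± 0.12 in the authors' deposited larger and smaller tables. The citrate carrier Slc25a1 had -0.07 ± 0.09 and -0.17 ± 0.11 in the authors' deposited tables, and malic enzyme Me1, a source of NADPH, had -0.08 ± 0.09 and 0.02 ± 0.12. Transcripts of Me1 share words with other genes as well, so its count is uncertain too.

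One elongase fell, and the remaining elongases and desaturases did not pass. Elovl3, which lengthens saturated and monounsaturated acyl-CoAs to very long chains and follows the day in mouse liver, lies at GRCm38 chromosome 19, 46131897 to 46135694, plus strand (ENSMUSG00000038754). It had 2713 and 2856 normalised reads in KO libraries, against 3576 and 3798 in WT libraries, of the larger table. For the smaller table these were 1518 and 1532 in KO libraries, against 1832 and 1875 in WT libraries. Libraries of a group lay close together and the groups were well apart in both tables. The KO mean was 1.32-fold lower in the larger table, while in the smaller it was 1.22-fold lower. The authors' deposited larger table gives -0.34 ± 0.09 (adjusted p = 0.0485), and the smaller -0.22 ± 0.11 (adjusted p = 0.999). The exons of Elovl3 overlap those of Pitx3. Like Srebf1, it lies just inside the threshold of 0.05, and Pklr, at 0.0502, is the member just outside it.

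The other 6 members of the group ran from -0.21 ± 0.11 (Elovl6, which lengthens palmitate to stearate) to 0.01 ± 0.11 (Elovl2, which lengthens polyunsaturated chains) in the authors' deposited larger table. In the smaller, where Elovl2 was again the highest at 0.13 ± 0.12, the lowest of the 6 was Fads1, the delta-5 desaturase, at -0.08 ± 0.11. Reads of 5 of these 6 were recovered in the smaller table, and KO and WT libraries overlapped for all 5. Most recovered genes of that table with a mean up to 2000 overlapped as well. Both KO libraries lay below both WT libraries for 20.5% of them and above for 18.7%. Elovl6 had 645 and 747 normalised reads in KO libraries, against 963 and 753 in WT libraries, of the larger table. In the smaller it had 370 and 420 in KO libraries, against 344 and 504 in WT libraries. Elovl6 was therefore lower in KO libraries of the larger table only by a margin of 747 to 753, and overlapped in the smaller. Elovl1, Elovl5 and Fads2, the delta-6 desaturase, had values between those given.

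Among the acyl-CoA synthetases, Acsl4 was higher in the KO and Acsl5 lower, and neither passed the adjusted threshold. Acsl4, which prefers arachidonate and other polyunsaturated acids, had 2202 and 1732 normalised reads in KO libraries, against 1525 and 1564 in WT libraries, of the larger table. For the smaller table these were 1753 and 1533 in KO libraries, against 1071 and 1134 in WT libraries. The WT libraries were alike and both KO libraries exceeded them, with the deeper KO library the highest in both tables. The KO mean was 1.27-fold higher in the larger table, while in the smaller it was 1.49-fold higher. Its log2 fold change was 0.26 ± 0.11 in the authors' deposited larger table (adjusted p = 0.801), with 0.44 ± 0.12 in the smaller (adjusted p = 0.0665), the largest positive value of any member in each. Without the deeper KO library its limma-voom log2 ratio in the larger table was 0.17, against 0.35 with all libraries.

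Acsl5 had 5289 and 5394 normalised reads in KO libraries, against 6463 and 5991 in WT libraries, of the larger table. The smaller table had 2717 and 2679 in KO libraries, against 2841 and 3226 in WT libraries. The authors' deposited tables give -0.19 ± 0.09 in the larger and -0.14 ± 0.11 in the smaller. In the smaller its limma-voom log2 ratio was -0.26 without the deeper and -0.075 without the shallower WT library, against -0.17 with all. Acsl1, the main long-chain synthetase of liver, had -0.17 ± 0.09 and -0.11 ± 0.11 in the authors' deposited tables, and its reads were not recovered. Acsl3, a synthetase of the ER and of growing lipid droplets, had -0.01 ± 0.12 and 0.01 ± 0.14 in the authors' deposited tables, with 68.1 and 110 normalised reads in KO libraries, against 82.8 and 90.6 in WT libraries, of the smaller table.

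Glycerolipid synthesis members lay near 0. None of its 9 measured members passed in either table, and their medians were -0.04 in the authors' deposited larger table, with -0.05 in the smaller. Dgat2, which joins the last fatty acid to diacylglycerol made from new fatty acids, was the one member with an unadjusted p under 0.05, in both tables. It had 6607 and 6921 normalised reads in KO libraries, against 8120 and 8438 in WT libraries, of the smaller table, and was not recovered in the larger. The authors' deposited tables give Dgat2 -0.18 ± 0.08 in the larger and -0.24 ± 0.11 in the smaller (adjusted p = 1.00 and 0.906). Dgat1, the enzyme of the same reaction, had 0.06 ± 0.12 and 0.13 ± 0.14 in the authors' deposited tables, and its KO and WT libraries overlapped in both.

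Earlier steps had values on both sides of 0. Gpam, the mitochondrial glycerol-3-phosphate acyltransferase, had -0.07 ± 0.10 in the authors' deposited larger table, with 0.15 ± 0.14, the highest of the group, in the smaller. In the smaller table its libraries held 189 and 329 normalised reads in KO, against 231 and 185 in WT, so that the groups overlapped. Gpat4, the ER form of the same enzyme, had 7109 and 7011 in KO libraries, against 5967 and 6834 in WT libraries, of the larger table, and overlapped in the smaller. Its 0.12 ± 0.09 was the highest value of the group in the authors' deposited larger table. The lowest there was Agpat1, which adds the second acyl chain, at -0.19 ± 0.12 with 188 and 180 normalised reads in KO libraries, against 257 and 210 in WT libraries. Gpd1, Agpat3 and Pnpla3, a lipid droplet enzyme whose gene SREBP1c turns on, had values from -0.15 (Gpd1, smaller table) to -0.0045 (Pnpla3, larger table) in the authors' deposited tables. Gpd1 makes glycerol 3-phosphate and Agpat3 is a further acyltransferase of the pathway.

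Lpin1, the phosphatidate phosphatase that fasting raises in liver, is set apart by its WT libraries. It had 3205 and 3763 normalised reads in KO libraries, against 2704 and 5658 in WT libraries, of the larger table. The smaller table gave it 1428 and 1840 in KO libraries, against 2770 and 1228 in WT libraries. The WT libraries thus differed from each other by more than either differed from a KO library. Its log2 fold change of -0.05 ± 0.09 and -0.05 ± 0.11 in the authors' deposited larger and smaller tables therefore averages over WT libraries that lie far apart.

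**Figure D4:**
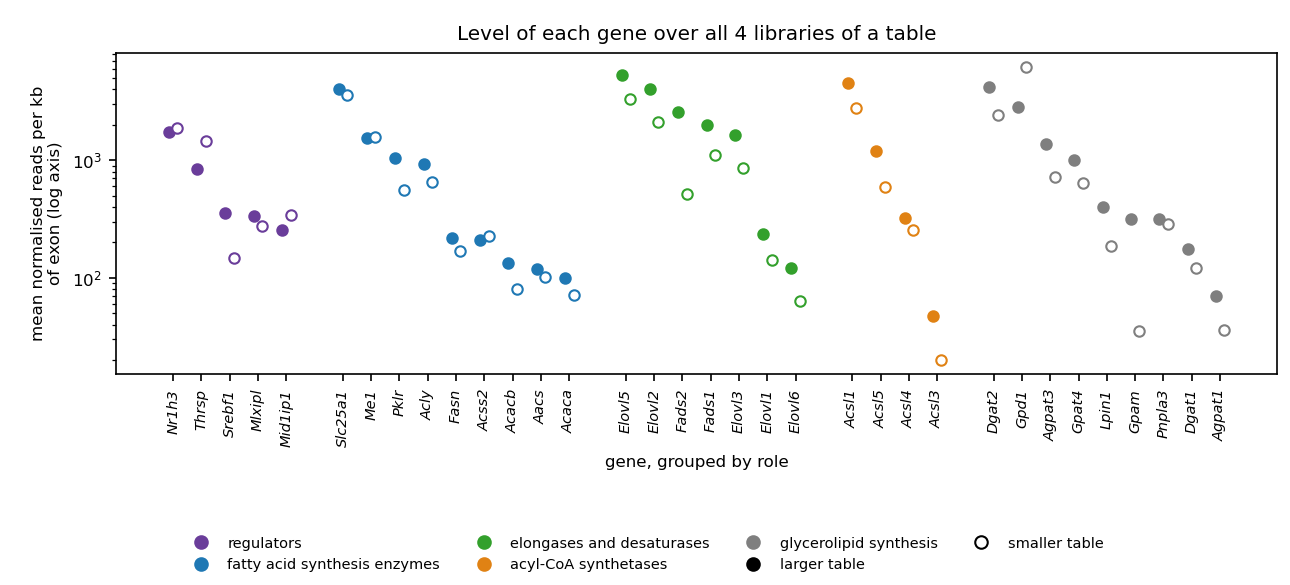
Mean normalised reads per kilobase of exon over the 4 libraries of a table, on a log axis, for each member, grouped by role and ordered by the larger table. Filled circles are the larger and open circles the smaller table. Gpam and Fads2 show the widest gaps between the tables, and Gpd1 and Thrsp are higher in the smaller.

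Per kilobase of exon, member levels covered a wide range. In the larger table the mean normalised reads per kilobase ran from 47.05 for Acsl3 to 5298 for Elovl5, and in the smaller from 20.1 for Acsl3 to 6162 for Gpd1. The 2 members that passed were not the most abundant, with 353 for Srebf1 and 1638 for Elovl3 in the larger table. Mean counts of the 2 tables were normalised separately, and their ratio, larger over smaller, had a median of 1.19 over all genes tested in both. For Gpam it was 9.04, above 98.7% of those genes, and for Fads2 4.93, above 96.9%. For Gpd1 it was 0.462, above 2.07% of them, and for Thrsp 0.581, above 6.27%. Which preparation stands on which side of these ratios is not given by the tables.

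The KO against WT difference of a member was not shown to depend on the table. Tested as smaller minus larger log2 fold change divided by the combined standard error, with Benjamini-Hochberg adjustment over 11604 genes, none of the 34 members differed (lowest adjusted p = 1.00). None had an unadjusted p under 0.05 either, beside 0.138% of all genes, of which 0.0172% passed. The largest difference was that of Aacs, -0.30 ± 0.17. The test treats the tables as independent, and its z values had a standard deviation of 0.535, so a p that misses the threshold does not show that the tables are alike.

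Other genes of the pathway were read from 5 lists. No gene passed the authors' adjusted threshold in either table among the SREBP, LXR and ChREBP machinery (12 tested in each table), NADPH supply (5 in each), the partners of long-chain elongation (8 in the larger and 7 in the smaller) and other glycerolipid and acyl-CoA enzymes (14 and 12). Their unadjusted p-values under 0.05 (the authors' Wald test in DESeq2) numbered 1, 0, 1 and 0 in the larger table, with 1, 0, 1 and 1 in the smaller, in that order of lists. Such a p was held by 3.62% and 4.11% of all tested genes in the larger and the smaller table. Of the genes for glucose entry upstream of lipogenesis, none of 10 passed in the larger table, while 1 of 9 passed in the smaller, lower in KO. Among all tested genes 0.296% and 0.266% passed in the larger and the smaller table. The gene with the largest Wald statistic of the machinery list was Insig2, the ER protein that holds SREBP with Scap in the ER. It had 12557 and 8849 normalised reads in KO libraries, against 8294 and 7984 in WT libraries, of the larger table. The smaller table had 7941 and 5938 in KO libraries, against 5078 and 5253 in WT libraries. These were chosen among 106 and 17 combinations by the deposited fold change. Both KO libraries of Insig2 lay above both WT libraries in the 2 tables, and the authors' deposited tables give 0.29 ± 0.11 in the larger and 0.33 ± 0.12 in the smaller (adjusted p = 0.648 and 0.560).

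Fads6, a desaturase-like gene, led the elongation partners. It had 3990 and 3640 normalised reads in KO libraries, against 3061 and 3210 in WT libraries, of the larger table, and 2075 and 1884 in KO libraries, against 1534 and 1507 in WT libraries, of the smaller. The authors' deposited tables give it 0.24 ± 0.09 and 0.30 ± 0.12 (adjusted p = 0.631 and 0.611). Khk, the ketohexokinase that lets fructose into glycolysis, had -0.29 ± 0.09 in the authors' deposited larger table, with -0.27 ± 0.11 in the smaller (adjusted p = 0.222 and 0.726). Fabp1, the fatty acid binding protein of liver, had -0.12 ± 0.12 and -0.33 ± 0.13 in the authors' deposited larger and smaller tables (adjusted p = 1.00 and 0.674). Slc27a4, a fatty acid transport protein, led the other glycerolipid enzymes in the larger table at -0.16 ± 0.10, and Nnt, the mitochondrial transhydrogenase, led NADPH supply in both, at -0.18 ± 0.11 and -0.16 ± 0.12, in the authors' deposited tables.

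Since CPEB4 is known to bind cytoplasmic polyadenylation elements, the words TTTTAT and TTTTAAT were looked up on the sense strand of the 3′ untranslated region of 1 principal transcript per gene (GENCODE M21). At least 1 word was held by 19 of 34 members (55.9%), beside 60.4% of tested genes of the larger table and 60.0% of the smaller. Among regions of 500 to 2000 bases the share was 12 of 23 members (52.2%), beside 64.3% and 64.1%. The 2 members that passed, Srebf1 and Elovl3, had none, nor had Pklr and Fasn. Acsl4 had 6, the most of any member, Acly had 2, and Mid1ip1, Mlxipl, Thrsp and Aacs had 1 each. The word nearest the 3′ end is shown for these 6, which are the ones carrying a word among the 12 members with an unadjusted p under 0.05 in either table. Each line is 30 bases, 5′ to 3′ on the mRNA strand with T for U, and capitals mark the word.
Acsl4: tgtagttatacaTTTTATattcatatttgt
Mid1ip1: tttaaaactttTTTTAATccagatgtagac
Mlxipl: tgcgtatgtggaTTTTATaaaaaagaaaat
Thrsp: cgcagctcttgcTTTTATccctggggaaag
Aacs: tgctatgaagaaTTTTATggaataaatctg
Acly: tgctttcttttTTTTAATtagttaaaaaat
On GRCm38 these are chrX:142318124-142318153 (minus strand) for Acsl4, chrX:10719629-10719658 (plus) for Mid1ip1, chr5:135137864-135137893 (plus) for Mlxipl, chr7:97413044-97413073 (minus) for Thrsp, chr5:125517359-125517388 (plus) for Aacs and chr11:100476881-100476910 (minus) for Acly. They lie 149, 51, 507, 124, 40 and 544 bases from the annotated 3′ end, in that order. Both KO libraries lay above both WT libraries for Acsl4 and Acly and below them for the other 4, in both tables. These genes were chosen by their p, which favours such separation. Srebf1, Elovl3, Pklr, Fasn and Acsl5, without a word, were below in both tables as well. Among recovered genes with a mean up to 2000, 19.7% and 20.5% were below and 17.5% and 18.7% above. No binding was measured in these data.

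The tissue was liver by its markers, and the lists of other cell types were read beside the members. Hepatocyte markers such as Alb and Hnf4a were among the abundant genes, with means of 1307220 and 34569.9 in the larger table, and none of 9 tested passed in either table. Trf, a further marker, had a mean of 0.974 in the larger table and was not tested there. Of the 8 adipocyte markers, the defining Adipoq, Plin1 and Retn had means under 20 in both tables, as had Lep in the larger, and none of the 4 tested (Cidec, Fabp4, Cfd and Pparg) passed. Those 4 summed to 1369 and 1614 normalised reads in KO libraries, against 2456 and 1650 in WT libraries, of the larger table, and to 1965 and 2184 in KO libraries, against 2395 and 3365 in WT libraries, of the smaller. The KO and WT sums did not overlap in either table, beside 19.7% and 20.5% of single genes with both KO libraries below both WT libraries. In the larger table the margin between the sums was narrow (1614 against 1650). Cidec, which hepatocytes also make, carried most of this sum, with -0.12 ± 0.10 and -0.48 ± 0.14 in the authors' deposited larger and smaller tables (adjusted p = 1.00 and 0.138). Macrophage markers had values below 0 for 11 and 12 of 12 in the authors' deposited larger and smaller tables, and none passed. Among all tested genes 50.4% and 49.7% had values below 0. The 11 with recovered reads summed to 7966 to 8646 in KO libraries, against 7893 to 10297 in WT libraries, of the larger table, and to 5233 to 6360 in KO libraries, against 5956 to 7850 in WT libraries, of the smaller. The 4 globins summed to 9079 to 11224 in KO libraries, against 12653 to 13958 in WT libraries, of the larger table, and to 10139 to 13109 in KO libraries, against 15418 to 17837 in WT libraries, of the smaller. Globin sums of the 2 groups thus did not overlap in either table, beside the 19.7% and 20.5% of single genes, and none of the 4 genes passed. The red cell marker Slc4a1 had a mean under 20 in both tables. Among stellate, endothelial and cholangiocyte markers none passed in either table. Unadjusted p-values under 0.05 (the authors' Wald test in DESeq2) were held by 4 globins in each table, by 2 macrophage and 1 adipocyte marker in the smaller, by 1 stellate marker in each, and by 1 and 3 hepatocyte markers in the larger and the smaller. Such a p was held by 3.62% and 4.11% of all tested genes. The part of these cell types in the differences of the members was not tested.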

How the data were processed

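RNA-seq of 8 libraries in 4 groups was deposited as 2 result tables, with no values per library. Per the file headers these are DESeq2 results. The authors' baseMean is a mean signal, that is, counts divided by size factors and averaged over libraries. The deposited log2 fold change is moderated by the authors and has a standard error (also log2). A Wald score and p-values follow, and the deposited adjusted p-values leave out genes of low mean (the lowest tested means were 17.4 and 31.9). STAR 2.3.0e, DESeq2 1.6.3 and mm10 are named, without roles, per the submitters' processing notes. Which counting tool, annotation and strand setting were used is not stated in those notes or headers. Means summed over genes to about 37351700 and 36848700 in the larger and the smaller table.

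The main results are the authors' test as deposited, at an adjusted p of 0.05. Names were matched by gene ID for 23484 and 21080 genes. The 36 genes, the pathway and marker lists and the tests were chosen with earlier results of these data known. Genes were named with values where the adjusted or unadjusted p was under 0.05 in either table, or where the log2 fold change was the highest or lowest of a role; of a pathway list, called genes and the one with the largest Wald score. One gene of the glucose entry list is not reported here. Aacs, Lpin1 and the genes set beside them for their libraries were described after their values were seen.

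Recovery of reads per library was added after seeing the data. It was tested on simulated data with means up to 1000, where 500 of 500 genes per table came out right (100%). The choice by fold change above a mean of 1000 was not simulated. A quasi-likelihood count test was foreseen for counts per library and was not run, because reads were recovered for part of the genes and could not be tied to labelled samples. limma-voom (limma 3.58.1, R 4.3.3) was run on them as an alternative. Fits used Python 3.11.15. The test between tables recovered 100% of 200 genes changed by a log2 difference of 1 among 11604, in data drawn with independent tables. The largest difference of a member was -0.30 (Aacs), and differences of that size were not simulated. Alternatives were other filters, thresholds and adjustments, members free of shared sequence, and leaving out each library.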

Additional observations from a re-analysis of the deposited data

How the results depend on the processing

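The 2 calls of the larger table (Srebf1 and Elovl3) came to 0 with no filter on low means and 0 with limma-voom on recovered reads, where 13 members had an unadjusted p under 0.05. They came to 3 with a mean of at least 100 or a threshold of 0.1 (Pklr added) and 7 with an empirical null, which called 222 genes in all. Leaving out 1 library in limma-voom gave 0 to 5, the 5 without the shallower KO library (Aacs, Acsl4, Mlxipl, Pklr and Srebf1). In the smaller table the 0 calls became 2 at a threshold of 0.1 (Acsl4 and Mid1ip1) and 3 with the empirical null (Aacs added). limma-voom gave 0, with 11 unadjusted, and leaving out 1 library gave 0 to 1 (Aacs, without the shallower KO library). Fits without a library assume that the lone library varies like the others. The cause of these changes was not tested.

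The median log2 fold change stayed below 0 in every alternative run. Leaving out 1 library, the median of recovered log2 ratios lay between -0.10 and -0.23 (larger table) or between -0.065 and -0.19 (smaller table). It was -0.23 without the shallower KO or the shallower WT library of the larger table, and -0.16 without the shallower KO and -0.19 without the deeper WT library of the smaller. Over the 16 members with no shared sequence or overlapping gene the median was -0.05 and -0.02. No member differed between tables in the alternatives run. With 2 libraries a group, the median standard error of all tested genes was 0.107 and 0.128, which limits what can be called. No paired analysis was possible because the recovered libraries carry no replicate number, and the likeness of libraries between tables comes from their values and not from the labels.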
